A study of Mus musculus with 25 samples.

Results

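Podocytes of control mice were followed from 2 weeks of age, when the last glomeruli of the mouse kidney have recently formed, to 5 weeks, when the kidney has taken on most of its adult function. The 9 arrays were chosen by their titles, 5 of control kidneys at 5 weeks and 4 at 2 weeks, out of 25 arrays in the series. Both groups, called WT, carried the Col1a1-eGFPL10a transgene on a C57/129sv background, in which a fusion of eGFP and ribosomal protein L10a lies behind a collagen 1α1 promoter and enhancer element. WT mice at 5 weeks were labelled P35 and those at 2 weeks P14, and 4 further WT arrays at 44 weeks (P300) are given only as levels. The comparison with knock-in (KI) mice used 4 KI arrays at 5 weeks and 4 at 2 weeks, which carried the same transgene and Actn4tm1.1Plk, a mutant allele of the actin crosslinker alpha-actinin-4. Tagged ribosomes were purified from kidney (translating ribosome affinity purification, TRAP). The step is meant to enrich RNA bound to ribosomes of the cells in which the transgene is active. No array title marks RNA taken before purification, so carry-over of RNA from other cells was not measured. The sex is labelled unknown. Nothing in the labels ties an array to its own mouse, and the p-values therefore describe only how these samples spread, which may in part be technical.

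Podocytes are the epithelial cells that wrap the glomerular capillaries. Their interlocking foot processes are joined by the slit diaphragm, which is built around nephrin, and they lie on a basement membrane that they make together with the endothelium. While a glomerulus forms, that membrane exchanges its early chains, laminin β1 and collagen IV α1 and α2, for laminin β2 and collagen IV α3, α4 and α5, and the podocyte leaves the cell cycle for good. Podocyte VEGF-A keeps the capillary endothelium alive throughout.

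The sequences below are promoter windows of genes on which the results turn, from RefSeq on mouse build GRCm38.p6, each running from 250 bases before to 50 bases after the annotated start, 5′ to 3′ on the gene's strand. The first 3 belong to cell division genes that were lower at 5 weeks, and capitals mark TTTGAA, the core of the cell cycle homology element, and CCAAT, the element bound by NF-Y, in either orientation. Capitals overlap where 2 elements share bases.
Cdca8, chr4:124936868-124937167, minus strand: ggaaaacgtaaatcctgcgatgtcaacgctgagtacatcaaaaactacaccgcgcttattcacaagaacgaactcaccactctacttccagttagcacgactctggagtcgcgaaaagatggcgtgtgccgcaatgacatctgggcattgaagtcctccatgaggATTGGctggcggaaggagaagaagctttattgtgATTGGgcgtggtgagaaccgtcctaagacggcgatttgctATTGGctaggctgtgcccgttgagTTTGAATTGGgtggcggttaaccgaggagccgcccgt
Ube2c, chr2:164769679-164769978, plus strand: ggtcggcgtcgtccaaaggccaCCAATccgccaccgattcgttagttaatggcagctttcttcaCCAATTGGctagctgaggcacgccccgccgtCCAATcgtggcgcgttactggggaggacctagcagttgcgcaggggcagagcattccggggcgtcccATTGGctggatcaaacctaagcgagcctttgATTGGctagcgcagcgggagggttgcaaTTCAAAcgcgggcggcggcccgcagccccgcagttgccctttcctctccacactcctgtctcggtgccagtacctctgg
Mki67, chr7:135716330-135716629, minus strand: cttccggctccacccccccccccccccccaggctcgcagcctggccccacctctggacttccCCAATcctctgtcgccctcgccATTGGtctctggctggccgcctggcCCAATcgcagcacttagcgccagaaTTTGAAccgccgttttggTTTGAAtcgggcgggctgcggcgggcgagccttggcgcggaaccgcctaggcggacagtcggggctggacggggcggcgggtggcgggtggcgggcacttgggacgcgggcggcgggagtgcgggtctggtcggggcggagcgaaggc
The next is a DNA replication gene, with an E2F-type string TTTCGCGC in capitals.
Mcm5, chr8:75109259-75109558, plus strand: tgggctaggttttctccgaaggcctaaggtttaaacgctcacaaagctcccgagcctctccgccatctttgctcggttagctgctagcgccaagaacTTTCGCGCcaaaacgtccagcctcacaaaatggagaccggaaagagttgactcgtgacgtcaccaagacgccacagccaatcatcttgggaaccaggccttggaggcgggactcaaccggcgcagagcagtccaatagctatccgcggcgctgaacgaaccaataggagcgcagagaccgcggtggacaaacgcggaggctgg
The next belongs to one of the largest rises, is 1 of 2 windows of its gene, and has GTTAAT in capitals, which is one side of the palindromic element read by HNF1 factors of kidney tubule and liver.
Nat8, chr6:85832230-85832529, minus strand: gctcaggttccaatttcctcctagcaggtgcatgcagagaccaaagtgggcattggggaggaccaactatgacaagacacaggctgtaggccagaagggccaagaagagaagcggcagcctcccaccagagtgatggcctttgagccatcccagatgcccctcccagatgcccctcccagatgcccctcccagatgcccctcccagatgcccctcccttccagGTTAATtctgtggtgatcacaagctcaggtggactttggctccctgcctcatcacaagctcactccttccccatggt
The last is the window of Col4a2, which overlaps that of Col4a1 on the other strand and lies mostly within the transcribed side of Col4a1, with CCAAT in capitals.
Col4a2, chr8:11312555-11312854, plus strand: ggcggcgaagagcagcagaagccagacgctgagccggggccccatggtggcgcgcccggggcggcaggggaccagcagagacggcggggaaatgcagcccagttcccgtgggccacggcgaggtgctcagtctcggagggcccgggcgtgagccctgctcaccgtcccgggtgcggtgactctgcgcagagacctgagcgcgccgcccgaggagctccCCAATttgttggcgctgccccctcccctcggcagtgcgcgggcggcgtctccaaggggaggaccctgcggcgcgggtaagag

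Between 2 and 5 weeks the WT arrays moved mostly downward. Of 11968 genes tested, 1457 were higher and 2596 lower at 5 weeks, which is 12.2% and 21.7% of the genes, or 33.9% in all (limma, Benjamini-Hochberg adjusted p under 0.05). The call has no minimum fold. Changes over 2-fold were more one-sided, with 136 genes higher (1.14%) and 886 lower (7.4%). The median gene changed by -0.06 on the log2 scale, and the median standard error of a change was 0.17. After quantile normalization 44.1% of the called genes were higher, and after centring of the arrays on their medians 43.1%. With the values as deposited the share was 35.9%. The 5-week and 2-week arrays did not overlap for 16.7% of the genes, and 1841 genes were both called and free of overlap.

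A pair of arrays stood apart from their groups. Array 1 of 2 weeks correlated with array 10 of 5 weeks at 0.964 across genes, the highest value between the ages, while array 10 correlated with the other 5-week arrays at 0.940 to 0.960. For many epithelial genes array 1 lay at the level of the 5-week arrays, and for the fibroblast marker mean, Col4a1 and Mki67 it lay with its own age. Array 10 had a Gapdh 3′ minus 5′ signal of 1.91, against 0.98 to 1.15 in the other 5-week arrays and 1.55 to 1.84 at 2 weeks, a measure of how far RNA ends are over-represented. The actin 3′ minus 5′ signal was 1.52 ± 0.06 at 5 weeks and 1.19 ± 0.10 at 2 weeks (SD, n = 5 and 4). The difference was 0.34 (adjusted p = 0.024, exact permutation test, two-sided, 3 measures). By the same test the Gapdh signal differed by -0.44 (adjusted p = 0.063) and the array median by -0.05 (adjusted p = 0.024). The array median ran from 4.82 to 4.9 at 5 weeks and from 4.91 to 4.93 at 2 weeks. Y-linked genes were high on 2 of 5 arrays at 5 weeks and on 4 of 4 at 2 weeks. Without arrays 1 and 10, an alternative chosen after the data were seen, 1757 genes were higher and 2944 lower at 5 weeks. With only the arrays of high Y-linked signal, 800 were higher and 1642 lower.

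Podocyte markers were strong at both ages. The mean log2 value over 34 podocyte identity genes was 10.61 ± 0.08 at 5 weeks and 10.35 ± 0.17 at 2 weeks (SD, n = 5 and 4), where the median probe set of an array lay between 4.82 and 4.93. Of these genes 19 were higher and 2 lower at 5 weeks, with a median log2 change of 0.36, where 12.2% of all genes were higher. Vegfa, the endothelial growth factor made by podocytes, had 10.09, 10.17, 10.02, 9.93 and 9.77 on the log2 scale at 5 weeks, against 9.48, 9.30, 9.10 and 9.05 at 2 weeks. No 5-week array overlapped a 2-week array, and Vegfa rose by 0.77 ± 0.11 (SE, adjusted p = 3.4e-05), or 1.70-fold. Wt1, the transcription factor that defines the podocyte lineage, had 12.28 to 12.54 at 5 weeks, against 11.94 to 12.15 at 2 weeks, and rose by 0.41 ± 0.08 (adjusted p = 0.00044). Foxc2, a forkhead factor of early podocytes, rose by 0.44, Synpo, which encodes the foot process actin binder synaptopodin, by 0.29, and Podxl, the sialomucin of the podocyte surface, by 0.29, each with no overlap between the ages. The other probe set of Synpo changed by 0.01, and with the probe sets averaged it did not pass (0.15, adjusted p = 0.49). Ildr2, Plekhh2 and Nes, the last encoding the intermediate filament nestin, rose by 0.87, 0.86 and 0.87. The 2 that fell were Gpr153, by 1.44, and Tcf21, a transcription factor of early podocytes and stroma, by 0.30.

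Nphs1, which encodes nephrin, had 10.65, 10.32, 10.94, 10.98 and 11.03 at 5 weeks, against 10.68, 9.68, 9.89 and 10.09 at 2 weeks. Array 1 lay inside the 5-week range, and the rise of 0.70 ± 0.21 passed (adjusted p = 0.013) with an overlap. Nphs1 did not pass without 2-week array 2 (0.56, adjusted p = 0.056), with the sex covariate (0.59, adjusted p = 0.052) or with the actin covariate (0.59, adjusted p = 0.067). Among 20 slit diaphragm and polarity genes 7 were higher (35%, against 12.2% of all genes) and 3 lower (15%, against 21.7%). The adaptors that link nephrin to actin rose, Nck2 by 0.55, Cd2ap by 0.51 and the kinase Fyn by 0.70. The other probe set of Fyn changed by -0.01. The 3 probe sets of Nck2 gave 0.08 to 0.55, and the 3 of Cd2ap 0.51 to 1.23. The polarity genes Pard6a, Scrib and Prkcz fell by 0.83, 0.77 and 0.61. Without arrays 7, 8 and 9 of 5 weeks, which leaves 2 arrays against 4, 1 of the 34 podocyte identity genes passed and the median was 0.24.

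Early chains of the basement membrane were lower, and the mature chains differed among themselves. Col4a1 had 10.40, 8.95, 9.20, 9.44 and 10.12 on the log2 scale at 5 weeks, against 11.71, 11.70, 11.45 and 11.37 at 2 weeks. It fell by 1.94 ± 0.24 (adjusted p = 1.2e-05), a level 3.83-fold lower. Col4a2, its neighbour on the other strand, fell by 1.92 ± 0.25 (adjusted p = 1.9e-05), also with no overlap. The promoter windows of the pair share 78 bases. Lamb1, the early laminin β1 chain, had 7.77 to 9.17 at 5 weeks, against 10.40 to 10.49 at 2 weeks, and fell by 1.97 ± 0.26 (adjusted p = 1.9e-05). Its 4 probe sets differed, with changes from -1.97 to 0.03. Arrays 6 and 10 were the highest of the 5-week arrays for Col4a1, Col4a2 and Lamb1, and also for the mean of the interstitial fibroblast markers (8.49 and 8.38, against 7.08 to 7.21 on the others); the part of those cells in these changes was not tested. Of the mature chains, Col4a4 had 11.81, 11.58, 11.45, 11.59 and 11.40 at 5 weeks, against 11.39, 11.15, 11.11 and 11.05 at 2 weeks. It rose by 0.39 ± 0.11 (adjusted p = 0.0083). Col4a4 did not pass with only the arrays compared (0.39, adjusted p = 0.055) or with the Gapdh covariate (0.32, adjusted p = 0.071). Nor did it pass without arrays 7, 8 and 9 (0.43, adjusted p = 0.074). Its WT mean at 44 weeks was 11.03. In KI it changed by 0.08 ± 0.11 (adjusted p = 0.71), and the difference between WT and KI did not pass. Col4a3, the neighbour of Col4a4, differed by 0.35 ± 0.14 (adjusted p = 0.062) and Col4a5 by 0.13 ± 0.15 (adjusted p = 0.54). Neither of those passed. Without array 1 Col4a3 passed, with 0.47 (adjusted p = 0.017). Lamb2, the mature laminin β2 chain, passed narrowly as lower at 5 weeks by 0.69 ± 0.26 (log2 change -0.69, adjusted p = 0.047). It did not pass without array 1 (-0.50, adjusted p = 0.17), with quantile normalization (-0.63, adjusted p = 0.069) or with centring (-0.64, adjusted p = 0.065). With the Gapdh covariate Lamb2 was -0.16 (adjusted p = 0.66), and without arrays 7, 8 and 9 -0.27 (adjusted p = 0.65). Without array 10 it passed (-0.98, adjusted p = 0.00063). In KI it changed by 0.28 ± 0.28 (adjusted p = 0.56). Lama1 did not pass (-0.51 ± 0.39, adjusted p = 0.33), and Lama5 was not analysed here. Frem2, which encodes an extracellular matrix protein of the epithelial basement membrane, fell by 2.65 ± 0.37, and 2-week array 1 had 5.42 where the other 2-week arrays had 7.81 to 8.10. Of 26 basement membrane genes 2 were higher (7.7%, against 12.2% of all genes) and 11 lower (42.3%, against 21.7%), median -0.48.

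Most genes of the interstitial matrix were lower. Among 34 interstitial collagen and matrix genes 23 were lower and 1 higher at 5 weeks (median -1.24), where 21.7% of all genes were lower. Eln, which encodes elastin, had 8.26, 7.41, 7.15, 7.18 and 7.90 at 5 weeks, against 10.79, 10.23, 9.87 and 10.26 at 2 weeks, and fell by 2.71 ± 0.26 (adjusted p = 2e-06). Its other probe set changed by -0.76. Col1a1, whose promoter drives the ribosome tag, had 10.43, 8.5, 8.68, 8.12 and 10.37 at 5 weeks, against 11.90, 11.77, 11.37 and 11.53 at 2 weeks. Arrays 6 and 10 were the highest of their age and still below every 2-week array, and the fall was 2.42 ± 0.39 (adjusted p = 0.00013). Postn, the matricellular protein periostin, fell by 3.37 and Col15a1, a basement membrane-associated collagen, by 3.00. Mmp2, a gelatinase, fell by 2.79. Timp3, an inhibitor of metalloproteinases, was the 1 member that rose, by 0.49.

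Markers of the interstitial and mural cells moved with these genes. The mean of 18 interstitial fibroblast markers ran from 7.08 to 8.49 at 5 weeks and from 9.01 to 9.86 at 2 weeks. Of the 18, 16 were lower (88.9%, against 21.7% of all genes). This list shares 11 tested genes with the matrix list. The mean of 13 mesangium, pericyte and smooth muscle markers ran from 7.25 to 8.37 at 5 weeks and from 8.43 to 9.04 at 2 weeks. In this list 10 genes were lower (76.9%, against 21.7% of all genes) and none higher. Among them Acta2, smooth muscle actin, fell by 1.29 ± 0.17 and Myl9, a myosin light chain, by 1.68 ± 0.22. Rgs5, a pericyte marker, fell by 1.65 ± 0.29 and Itga8, an integrin of mesangial cells, by 1.52 ± 0.29. The other probe set of Acta2 changed by -0.28 and that of Itga8 by -0.32. In RNA purified with tagged ribosomes from kidney, fewer cells of a type, less tag in them and less RNA per cell cannot be told apart. Nor can less carry-over of RNA from untagged cells. The part of these cells in the change of the matrix genes was not tested. With arrays 7, 8 and 9 of 5 weeks left out, 9 of the 34 matrix genes and 6 of the 18 fibroblast markers were lower.

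**Figure D1:**
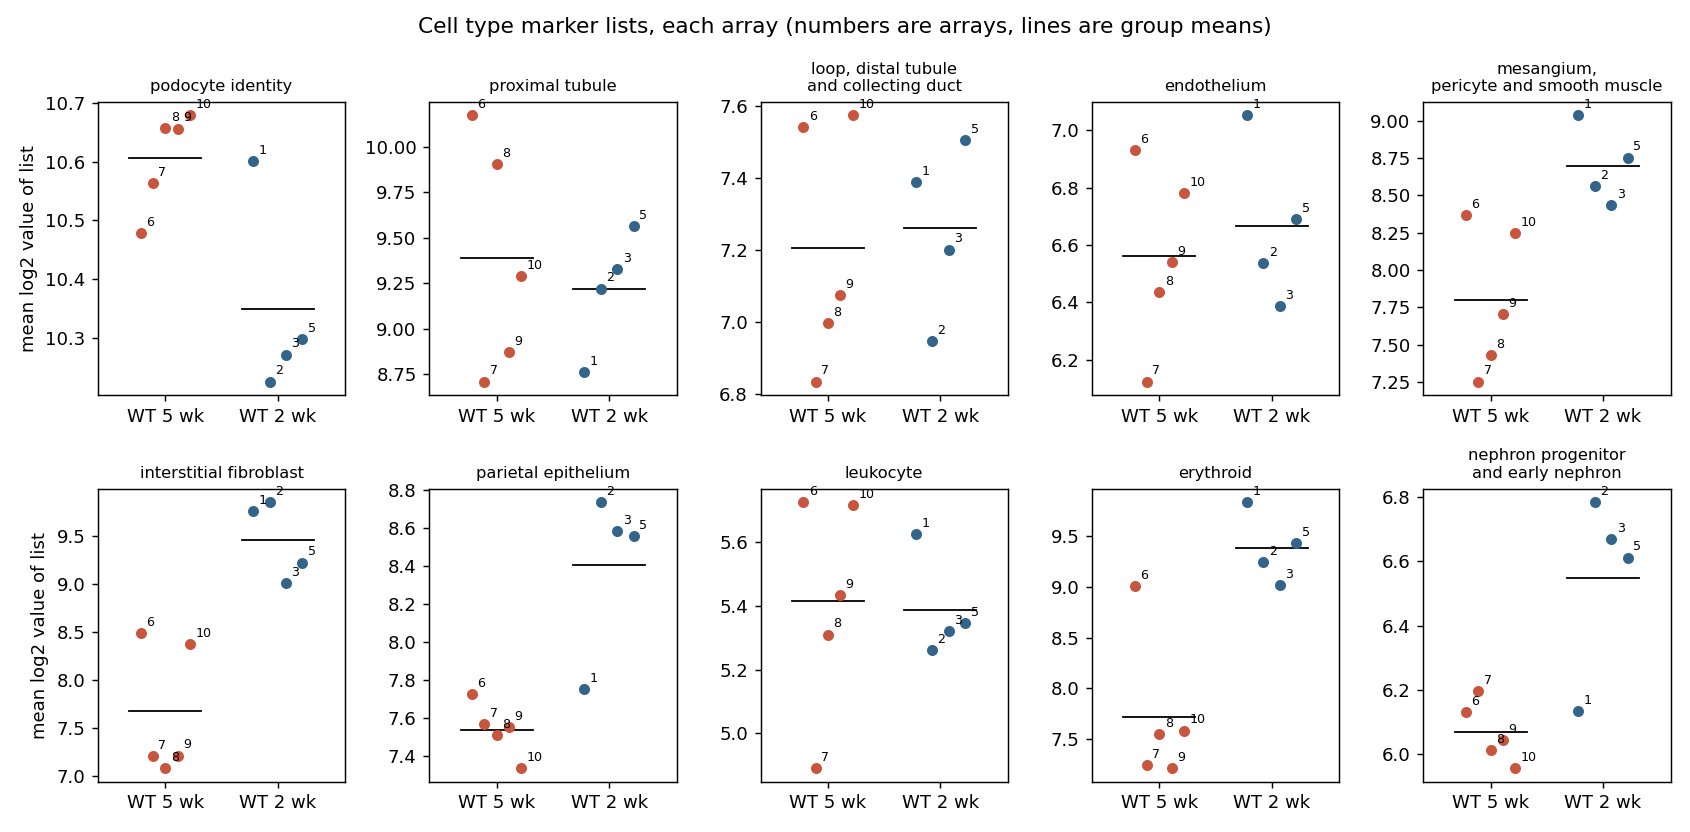
Mean log2 value of each cell type marker list (vertical axes, each panel with its own range) on every WT array at 5 weeks (left, red) and 2 weeks (right, blue). Points are arrays with their numbers, and lines are group means; fibroblast means at 5 weeks end at 8.49 and those at 2 weeks begin at 9.01, while array 1 lies near the 5-week arrays for podocyte, parietal and early nephron genes.

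Most markers of the parietal epithelium were lower, and for several genes here array 1 lay at or near the 5-week values. Krt8, a keratin of parietal and tubular epithelium, had 8.05, 6.39, 7.36, 5.88 and 7.19 at 5 weeks, against 7.82, 9.70, 10.39 and 10.08 at 2 weeks. It fell by 2.52 ± 0.49 (adjusted p = 0.00059), and by 3.08 without array 1. Irx1 and Irx2, homeobox genes of the intermediate nephron segment, fell by 1.91 and 1.81. Irx1 had 4.85 to 5.31 at 5 weeks, and the 2-week values were 5.11 on array 1 and 7.32 to 7.81 on the others. Cdh6, a cadherin of the early proximal segment, fell by 2.03 and Cd24a, a surface glycoprotein of nephron progenitors and parietal cells, by 0.83. The other probe set of Cdh6 changed by -0.52 and that of Cd24a by -1.6. Of 13 parietal genes 8 were lower (61.5%, against 21.7% of all genes) and none higher (median -0.83). Of 14 progenitor and early nephron genes 4 were lower (28.6%, near the 21.7% of all genes) and 10 did not pass (median -0.16).

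The largest changes of all lay outside the podocyte lists. Serpina6, which encodes corticosteroid-binding globulin, had 3.76, 4.19, 3.96, 4.97 and 5.45 at 5 weeks, against 10.26, 12.76, 12.80 and 12.67 at 2 weeks. It fell by 7.65 ± 0.54 (adjusted p = 1.5e-08), the largest fall of any gene tested, and its 5-week values lay near those of the non-specific control probe sets, which ran from 2.07 to 3.91. At 44 weeks its mean was 4.26. Serpina10, a protease inhibitor gene with no other coding gene between it and Serpina6 on chromosome 12, had 4.78 to 5.07 at 5 weeks and 5.85 on array 1, against 9.01 to 9.55 on the other 2-week arrays. It fell by 3.40 ± 0.49 (adjusted p = 4.7e-05). Agt, which encodes angiotensinogen, had 5.62, 5.21, 5.34, 5.42 and 5.24 at 5 weeks, against 6.37, 10.02, 10.55 and 10.25 at 2 weeks, a fall of 3.93 ± 0.52 (adjusted p = 2.1e-05). Ace, the enzyme that converts angiotensin I, fell by 3.48 ± 0.51 (adjusted p = 6.4e-05) and Anpep, an aminopeptidase that trims angiotensins, by 3.02 ± 0.40 (adjusted p = 2.1e-05). Xpnpep2, a membrane aminopeptidase, fell by 3.11. For Agt, Ace, Serpina10 and Xpnpep2 the 5-week arrays and array 1 lay together, just free of overlap, and the other 2-week arrays lay far above.

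Agt, Ace, Anpep and Xpnpep2 are also products of the proximal tubule. The mean of 20 proximal tubule markers ran from 8.71 to 10.17 at 5 weeks and from 8.76 to 9.57 at 2 weeks, and array 1 had the lowest of the 2-week means. Of the 20 genes 4 were higher (20.0%, against 12.2% of all genes) and 2 lower (10.0%, against 21.7%). Once array 1 was left out 3 were higher and 7 lower. With the mean of the proximal and the loop, distal and collecting duct markers as a covariate, the change was -3.95 for Agt and -3.51 for Ace. That mean overlapped between the ages (7.69 to 8.74 at 5 weeks and 7.98 to 8.44 at 2 weeks), so the covariate could shift these values little. The part of tubule cells in these falls was not tested. Among transporters of the tubule, Aqp1, the water channel, had 8.63 to 9.66 at 5 weeks and 9.19 on array 1, against 11.70 to 12.09 on the other 2-week arrays, and fell by 2.34 ± 0.40. Slc6a13, a GABA and taurine transporter, fell by 3.05, Slco4c1, an organic anion transporter, by 2.81, and Slc3a1, the heavy subunit of the cystine transporter, by 1.71. Slc38a3, a glutamine transporter, fell by 2.33. Among 32 amino acid, phosphate and sugar transporters 14 were lower (43.8%) and 5 higher (15.6%), against 21.7% and 12.2% of all genes (median -0.89). Slc5a12, a lactate transporter, was among those that rose, by 1.23 ± 0.30 (adjusted p = 0.0033).

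The haemoglobin genes Hbb-b2 and Hba-a1 fell by 3.83 ± 0.62 and 3.15 ± 0.53. The 3 probe sets of Hbb-b2 gave -3.83 to -0.71, with -2.78 when averaged, and the 3 of Hba-a1 gave -3.98 to -2.64. In KI each changed by -1.93, which passed for Hba-a1 (adjusted p = 0.024) and not for Hbb-b2 (adjusted p = 0.052). Both genes have near-identical copies in the genome, so the members cannot be told apart. Array 6 of 5 weeks had 9.81 for Hbb-b2, where the other 5-week arrays had 6.56 to 7.07. The neuropeptide genes Cck and Penk fell by 3.24 and 3.09. Cck had 3.1, 3.52 and 3.37 on 5-week arrays 7, 8 and 9, within the non-specific range up to 3.91, so the size of its fall is uncertain. Adam12, a metalloproteinase of growing mesenchyme, fell by 3.25. Smoc2, a secreted calcium-binding matrix protein, fell by 3.18. Alx1, a homeobox gene of mesenchyme, fell by 3.15.

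**Figure D2:**
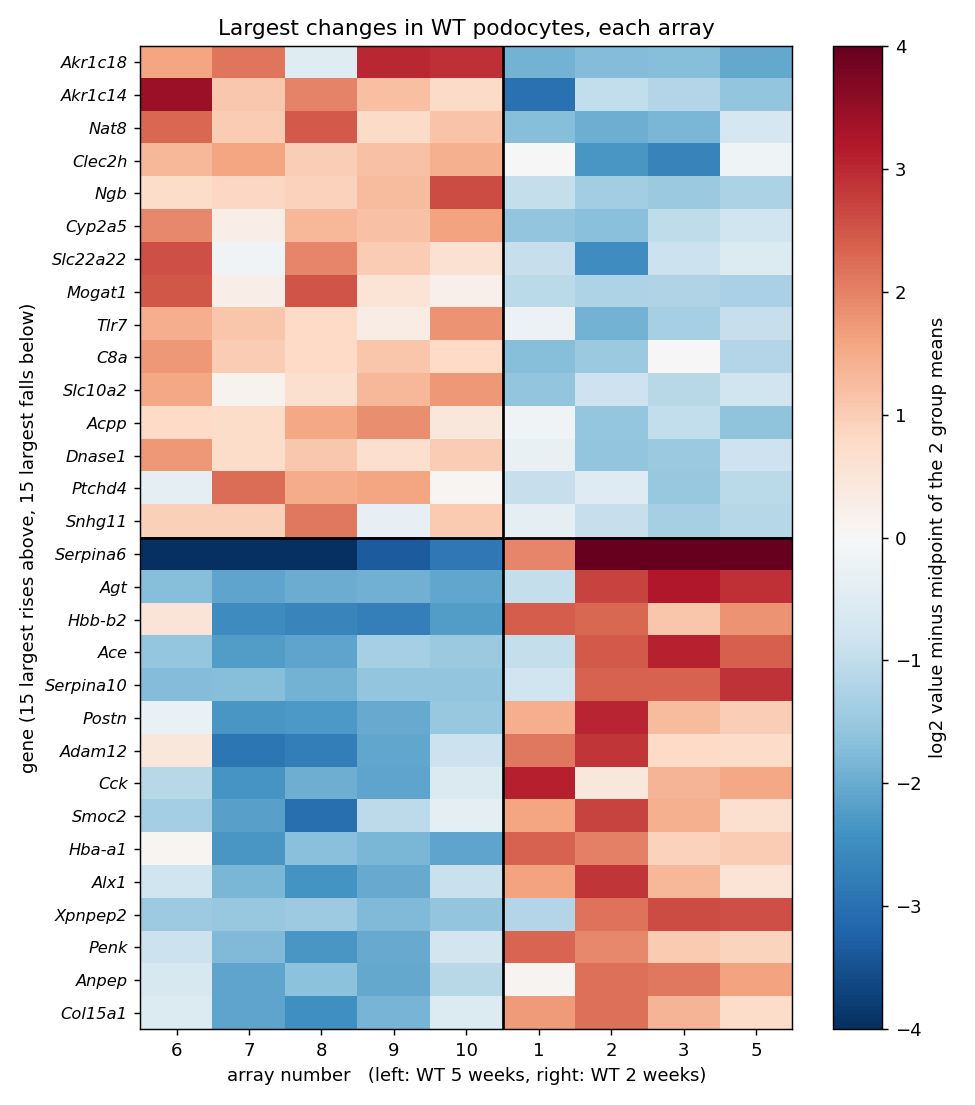
Log2 value minus the midpoint of the 2 group means (colour, which ends at 4 either way, so Serpina6 runs off the scale) for the 15 largest rises and 15 largest falls with named genes, in 5 WT arrays at 5 weeks (left) and 4 at 2 weeks (right). Array 1 is pale or blue, like the 5-week arrays, for Agt, Ace, Serpina10, Xpnpep2 and Anpep, and red for Postn, Cck and Penk.

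The largest rises included genes of steroid, drug and lipid handling. Akr1c18, which inactivates progesterone, had 7.20, 7.76, 5.12, 8.65 and 8.55 at 5 weeks, against 3.74, 3.90, 3.91 and 3.58 at 2 weeks. It passed as higher (adjusted p = 0.00044), with no overlap, but its 2-week values lay within the range of the non-specific control probe sets, up to 3.91, so the size of the rise was not measured. Akr1c14, the neighbouring 3α-hydroxysteroid dehydrogenase, had 9.41, 7.07, 7.97, 7.19 and 6.76 at 5 weeks, against 3.01, 5.03, 4.82 and 4.43 at 2 weeks, and rose by 3.36 ± 0.69 (adjusted p = 0.0009). Its 3.01 on array 1 lay within the non-specific range. Nat8, which acetylates cysteine conjugates in kidney and liver, had 9.90, 8.60, 10.04, 8.35 and 8.72 at 5 weeks, against 5.89, 5.64, 5.77 and 6.92 at 2 weeks, a rise of 3.07 ± 0.50 (adjusted p = 0.00014). Cyp2a5, a drug-metabolizing cytochrome, rose by 2.54, Slc22a22, a prostaglandin transporter, by 2.41, Mogat1, a monoacylglycerol acyltransferase, by 2.4, and Slc10a2, the ileal-type bile acid transporter, by 2.15. The other probe set of Slc10a2 changed by 0.26. Its 2-week values of 3.24 and 3.72 on arrays 1 and 3 lay within the non-specific range, so the size of its rise is uncertain. Arrays 6 and 8, the 5-week arrays with high Y-linked signal, had 9.83 and 9.84 for Mogat1, and the other 5-week arrays had 7.53 to 7.88. With sex as a covariate, Mogat1 changed by 3.42. Of 45 organic ion and drug genes 7 were higher and 7 lower (15.6% each, against 12.2% and 21.7% of all genes, median 0.00). With only the arrays of high Y-linked signal 17 were higher and 4 lower. In KI 12 were higher and 7 lower, where 5.4% of all genes were higher and 8.29% lower. Y-linked signal was high on 3 of 4 KI arrays at 5 weeks and on 1 of 4 at 2 weeks.

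Ngb, the globin neuroglobin, had 8.81, 8.91, 9.00, 9.36 and 10.71 at 5 weeks, against 7.15, 6.69, 6.62 and 6.83 at 2 weeks. It rose by 2.54 ± 0.30 (adjusted p = 6.6e-06), had a mean of 10.63 at 44 weeks, and rose by 2.98 in KI. Its other probe set changed by 0.89. Acpp, prostatic acid phosphatase, rose by 2.15, Dnase1 by 2.10, and Tlr7, a receptor for single-stranded RNA, by 2.18. The other probe set of Acpp changed by 0.51, and the 3 of Tlr7 gave 1.0 to 2.18. C8a, a subunit of the terminal complement complex, rose by 2.18 and Clec2h, a C-type lectin, by 2.59. At 2 weeks C8a had 3.59 and 3.8 on arrays 1 and 2, within the non-specific range up to 3.91. Clec2h had 3.21 and 2.86 on 2-week arrays 2 and 3, also within it, and its 3 probe sets gave 1.33 to 2.59. Ptchd4, a patched-domain gene, had 5.09 to 7.67 at 5 weeks, against 3.91 to 4.92 at 2 weeks, and rose by 2.02. Its other probe set changed by 0.43. The non-coding RNA Snhg11 passed as higher (adjusted p = 0.0059), with 2-week values of 2.87 to 3.83 that lay within the non-specific range.

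**Figure D3:**
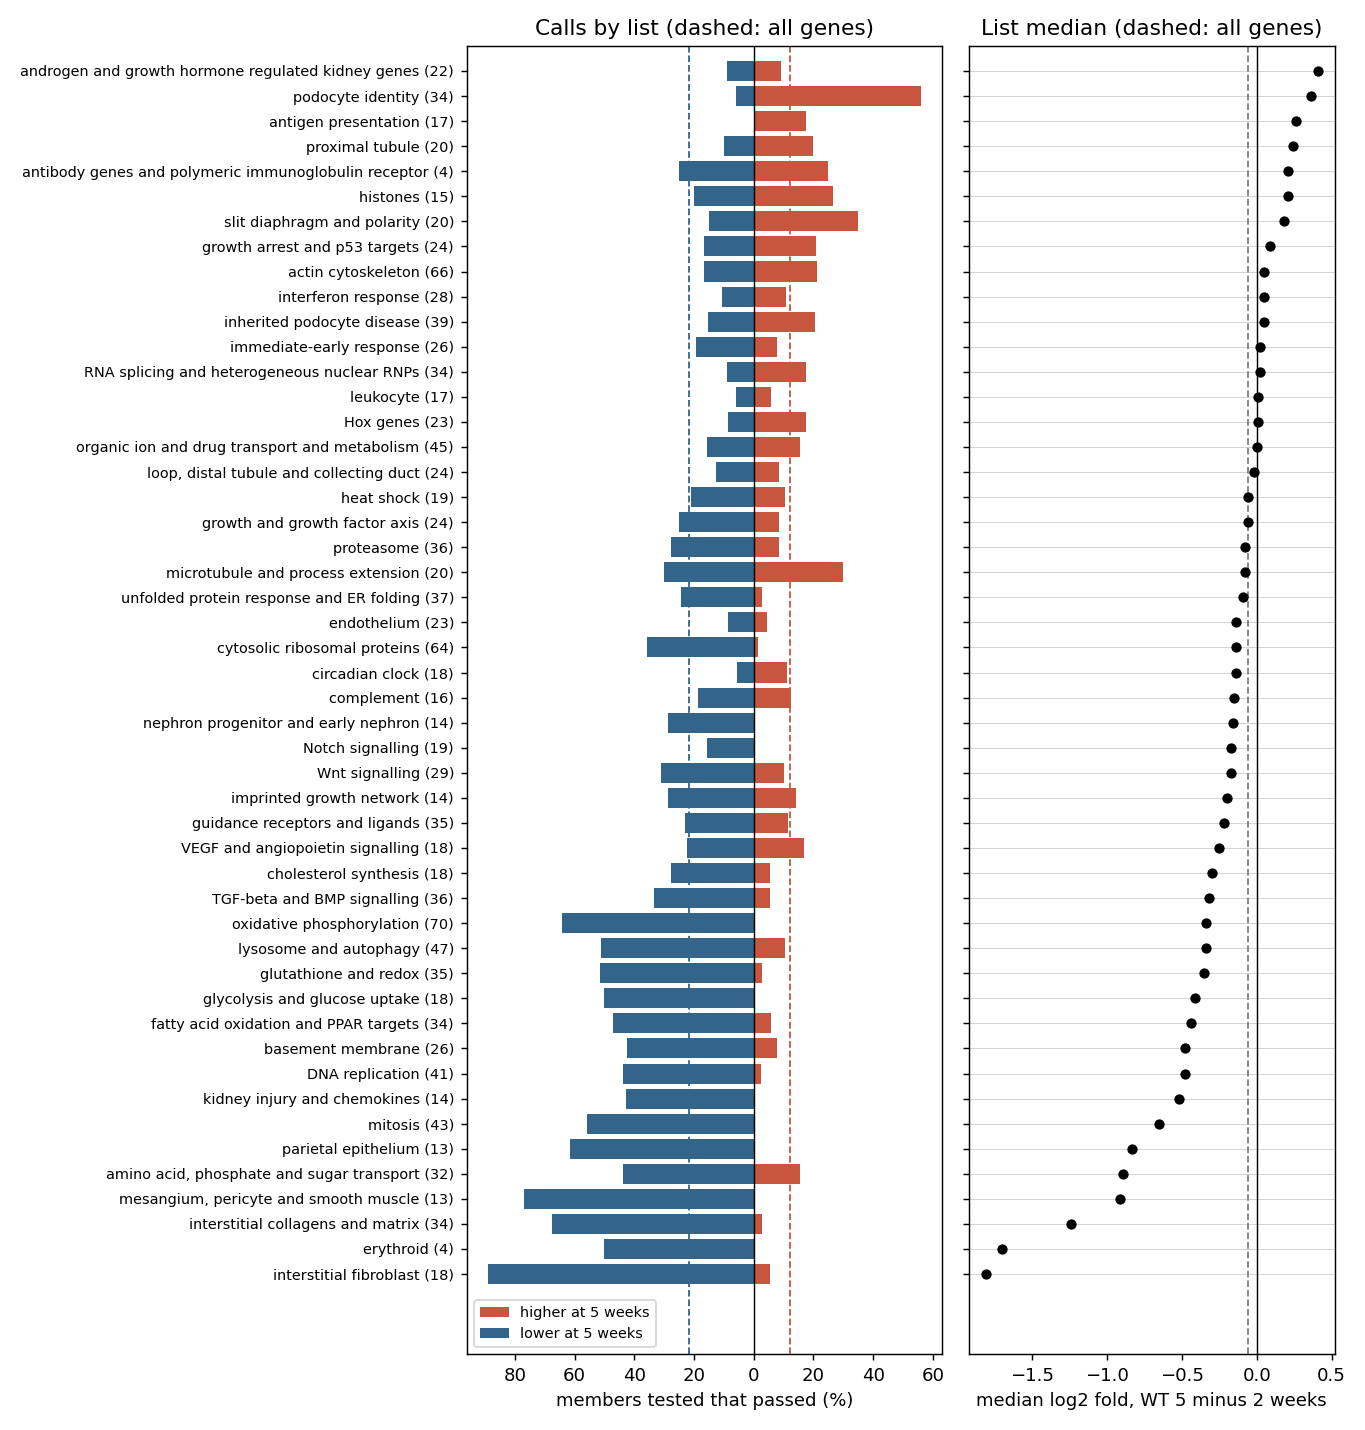
Left, share of tested members (%) that were higher (red, right of 0) or lower (blue, left of 0) at 5 weeks in each gene list, with the shares over all genes dashed at 12.2% and 21.7%; right, the median log2 change of each list, with the median of all genes dashed at -0.06. The number tested follows each name; podocyte identity has a median of 0.36 and interstitial fibroblast of -1.81.

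Many cell division genes were lower, and none of the mitosis list was higher. Mki67, the proliferation antigen Ki-67, had 5.93, 5.47, 4.87, 4.91 and 5.53 on the log2 scale at 5 weeks, against 6.90, 6.77, 6.87 and 6.85 at 2 weeks. The groups did not overlap, and it fell by 1.5 ± 0.30 (adjusted p = 0.00083), with a mean of 4.36 at 44 weeks. Cdca8, which encodes the chromosomal passenger protein borealin, fell by 1.35 ± 0.24, Ube2c, the ubiquitin enzyme that ends mitosis, by 1.59 ± 0.31, and Birc5, survivin, by 2.04. Pbk, a mitotic kinase, fell by 1.94, but array 6 had 6.85, inside the 2-week range of 6.66 to 7.63. Top2a, a topoisomerase, fell by 1.25 with an overlap, and its 3 probe sets gave -1.25 to 0.11. Of 43 mitosis genes 24 were lower (55.8%, against 21.7% of all genes) and none higher (median -0.65). Without 5-week arrays 7, 8 and 9, 5 of the 43 were lower (median -0.58), where 714 of 11968 tested genes were lower. Mki67 did not pass there (-1.12, adjusted p = 0.076). With only the arrays of high Y-linked signal 4 of the 43 were lower (median -0.53), where 1642 of 11968 tested genes were lower. The replication genes followed, with 18 of 41 lower (43.9%, against 21.7% of all genes) and 1 higher (median -0.48). Without arrays 7, 8 and 9, 4 of the 41 were lower, and with only the arrays of high Y-linked signal 8. Mcm5, a subunit of the replicative helicase, fell by 1.01 ± 0.15 (adjusted p = 6.8e-05). Its other probe set changed by -0.09, and with the probe sets averaged Mcm5 changed by -0.55 (adjusted p = 0.00042). Chaf1b, a subunit of chromatin assembly factor, fell by 1.15 ± 0.22 (another probe set changed by 0.06), and Lig1, the replicative DNA ligase, by 0.78 ± 0.15.

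The promoter windows of the mitosis genes shown above were searched on both strands, together with those of all tested genes. TTTGAA stood in 17 of 20 mitosis genes that were lower and had a window, and in 27 of 35 mitosis genes with a window, against 1380 of 9654 tested genes (14.3%). CCAAT stood in 19 of the 20, against 42.4% of tested genes. The promoters printed were picked because they hold these strings, while those of Chaf1b, Agt and Akr1c14 do not hold the string of their group. The string TTTCGCGC stood in 5 of 15 replication genes that were lower, against 69 of 9654 tested genes, while TTTGAA stood in 0 of those 15. GTTAAT stood in 6 of 13 of the largest rises with a window, against 5.8% of tested genes. In all, 13 strings were searched after the changes were known, the others being TTCGAA and TTTAAA, which are close to the cell cycle element, the TATA string TATAAA, the GC box GGGCGG, the E-box CACGTG, the HNF4-type string CAAAGTCCA, the HNF1 palindrome in a whole and a shortened form, and a further HNF4-type string. GTTAAT is contained in both HNF1 forms. The whole palindrome stood in 0 of the 13 largest rises with a window and in 0 of 9654 tested genes. Its shortened form stood in 1 of the 13, against 34 of 9654. TTTAAA stood in 6 of 13 of the largest rises, against 11.2% of tested genes. GGGCGG stood in 2 of the 13, against 67.0% of tested genes. Some genes have several windows, 20.6% of those tested, and a match in any one counted.

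Bmp4, a ligand of the BMP pathway, had 7.72, 7.75, 7.37, 7.77 and 7.23 at 5 weeks, against 9.71, 9.84, 9.17 and 9.21 at 2 weeks, a fall of 1.91 ± 0.21 (adjusted p = 4.9e-06). Its target genes Id1 and Id3, which encode inhibitors of DNA-binding factors, fell by 1.75 ± 0.28 and 1.83 ± 0.20. Among 36 TGF-beta and BMP genes 12 were lower (33.3%, against 21.7% of all genes) and 2 higher (5.6%, against 12.2%), median -0.32. The ligand gene Bmp7 was one of those that rose, by 0.46. Wnt5a, a non-canonical Wnt ligand, fell by 1.75 ± 0.27, and Sfrp1, a secreted Wnt antagonist, by 1.56 ± 0.23. In the imprinted growth network Phlda2 fell by 2.06, and Sgce passed at -1.34 with another probe set at 0.16, while Plagl1, a zinc finger regulator of that network, rose by 0.55. Socs2, the feedback inhibitor of growth hormone signalling, had 8.29 to 8.84 at 5 weeks, against 7.24 to 8.06 at 2 weeks, and rose by 1.11 ± 0.22. Igfbp4, an IGF-binding protein, fell by 1.48 and Mdk, the heparin-binding growth factor midkine, by 1.86. Cdkn1a, the cell cycle inhibitor p21, fell by 2.06. Among 24 growth arrest and p53 targets 5 were higher (20.8%, against 12.2% of all genes) and 4 lower (16.7%, against 21.7%).

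Hox genes of 1 cluster went different ways. Hoxc4 had 10.29, 10.80, 10.55, 10.53 and 10.10 at 5 weeks, against 9.53, 9.29, 9.02 and 9.19 at 2 weeks, and rose by 1.20 ± 0.14 (adjusted p = 4.9e-06). Hoxc8 rose by 0.86 ± 0.16. Hoxa11, a gene of the nephrogenic and stromal mesenchyme, had 5.31 to 6.27 at 5 weeks, against 7.43 to 8.51 at 2 weeks, and fell by 2.20 ± 0.23 (adjusted p = 3.7e-06), while Hoxa9 of the same cluster rose by 0.54. Of 23 Hox genes 4 were higher (17.4%, against 12.2% of all genes) and 2 lower (8.7%, against 21.7%).

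Actin genes went both ways in nearly equal number. Zyx, the focal adhesion protein zyxin, had 7.37, 7.76, 7.60, 7.44 and 8.17 at 5 weeks, against 9.02, 9.33, 9.26 and 9.18 at 2 weeks, and fell by 1.53 ± 0.15 (adjusted p = 3e-06). Flna, filamin A, fell by 2.10 and Pdlim7, an actin-binding LIM protein, by 1.63. Tpm2, a tropomyosin of contractile cells, fell by 1.61, and its 4 probe sets gave -1.65 to -0.17. Diaph2, a formin, rose by 0.97 ± 0.14 (adjusted p = 6.6e-05). Among 66 actin genes 14 were higher (21.2%, against 12.2% of all genes) and 11 lower (16.7%, against 21.7%), median 0.05. Actn1, the relative of the gene that carries the KI allele, differed by 0.12 ± 0.23 (adjusted p = 0.73), and its 3 probe sets gave -0.15 to 0.12. Tpm2 is also a product of smooth muscle, whose marker mean was lower, and the part of those cells was not tested.

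Of 18 VEGF and angiopoietin signalling genes 3 were higher (16.7%) and 4 lower (22.2%), near the 12.2% and 21.7% of all genes. Angpt2, the angiopoietin of vessel remodelling, had 6.03, 4.97, 5.30, 5.65 and 6.78 at 5 weeks, against 7.00, 8.30, 8.19 and 8.00 at 2 weeks, and fell by 2.13 ± 0.30 (adjusted p = 4e-05). Its other probe set changed by -0.75. Pdgfb, which recruits mesangial cells, fell by 0.99 ± 0.18, and its other probe set changed by -0.33. Vegfd, a lymphatic growth factor, fell by 1.88 ± 0.39. The mean of 23 endothelial markers overlapped between the ages (6.12 to 6.93 at 5 weeks and 6.39 to 7.05 at 2 weeks). Of these markers 1 was higher (4.3%, against 12.2% of all genes) and 2 lower (8.7%, against 21.7%). The 3 were Flt1, a VEGF receptor, which rose by 1.37, and Eng and Emcn, endothelial surface proteins, which fell by 1.64 and 1.5. Eng and Emcn overlapped between the ages, and without 5-week arrays 7, 8 and 9 neither passed (-0.49, adjusted p = 0.32, for Eng and -0.78, adjusted p = 0.28, for Emcn). Flt1 did not pass without 2-week array 3 (1.13, adjusted p = 0.095). It had 3 probe sets and did not pass when they were averaged.

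Most genes of oxidative phosphorylation were lower. Among 70 oxidative phosphorylation genes 45 were lower and none higher, with a median of -0.34, where 21.7% of all genes were lower. Without 5-week arrays 7, 8 and 9, 14 of the 70 were lower (median -0.29), where 714 of 11968 tested genes were lower. In KI 9 of the 70 were lower (median -0.16), where 8.29% of all genes were lower. The WT mean of this list was 11.58 at 2 weeks, 11.18 at 5 weeks and 11.40 at 44 weeks. Atp5o, a subunit of ATP synthase, had 11.25, 11.29, 11.49, 11.33 and 11.91 at 5 weeks, against 12.09, 12.20, 12.26 and 12.26 at 2 weeks, and fell by 0.75 ± 0.10 (adjusted p = 3e-05). Array 10 had the highest value of its age here and for the complex I subunits Ndufs8 and Ndufs7, which fell by 1.21 and 1.01. Of 18 glycolysis genes 9 were lower and none higher (median -0.41), where 21.7% of all genes were lower. Pfkl, a phosphofructokinase, passed at -1.49, but its 3 probe sets ran from -1.56 to 0.33 and averaged -0.91. Of 34 fatty acid oxidation and PPAR genes 16 were lower (47.1%, against 21.7% of all genes) and 2 higher (5.9%, against 12.2%). Pparg, the nuclear receptor of lipid storage, fell by 1.49, and Cpt1a, the enzyme that admits fatty acids to mitochondria, rose by 0.72. Mgst3, a glutathione transferase, fell by 2.06 ± 0.26, and 18 of 35 glutathione and redox genes were lower (51.4%, against 21.7% of all genes). Without 5-week arrays 7, 8 and 9, 3 of the 35 redox genes were lower. In that setting 3 of the 34 fatty acid and PPAR genes and 3 of the 18 glycolysis genes were lower.

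Cytosolic ribosomal protein genes were lower in 23 of 64 cases and higher in 1, with a median of -0.14. The lower share was 35.9%, against 21.7% of all genes, and the median lay near the -0.06 of all genes. Rpl29 and Rplp0 fell by 0.67 and 0.99. Herpud1, a gene of endoplasmic reticulum stress, fell by 1.14 ± 0.19. Of 47 lysosome and autophagy genes 24 were lower (51.1%, against 21.7% of all genes) and 5 higher (10.6%, against 12.2%), median -0.34. Among them Grn, progranulin, had 8.62 to 9.54 at 5 weeks, against 9.98 to 10.15 at 2 weeks, and fell by 1.13 ± 0.15. Glb1, lysosomal β-galactosidase, fell by 1.73 ± 0.29. Without 5-week arrays 7, 8 and 9, 5 of the 47 lysosome and autophagy genes and 6 of the 64 ribosomal protein genes were lower. In that setting 714 of 11968 tested genes were lower.

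Of 17 antigen presentation genes 3 were higher, which at 17.6% is near the 12.2% of all genes, and 14 did not pass. Nlrc5, the activator of MHC class I genes, had 6.93, 7.41, 8.01, 7.92 and 7.31 at 5 weeks, against 6.67, 5.27, 6.24 and 4.80 at 2 weeks, and rose by 1.77 ± 0.37 (adjusted p = 0.0011). The class I genes H2-D1 and H2-M3 rose by 0.67 and 0.42. H2-D1 belongs to a family with near-identical copies and is uncertain, and it did not pass when its 5 probe sets were averaged. Irf9, a subunit of the interferon-activated factor, rose by 0.81 ± 0.16. Xaf1 passed at 1.3, but its other probe set changed by -2.17, so no direction is given. Pigr, the receptor that carries polymeric antibodies across epithelium, had 6.18, 5.09, 6.72, 8.04 and 7.96 at 5 weeks, against 5.03, 5.16, 5.11 and 4.97 at 2 weeks, and its mean at 44 weeks was 12.47. Array 7 lay within the 2-week range, and the rise at 5 weeks was 1.73 ± 0.45 (adjusted p = 0.0055). Fcgrt, the neonatal Fc receptor, which recycles antibodies, fell by 1.58 ± 0.23. Cebpd, a transcription factor of the acute phase, fell by 2.09 ± 0.24. In the complement list Cd55, which protects host cells, rose by 0.92 and Masp1, a protease of the lectin pathway, fell by 2.64. The leukocyte marker Ptprc, CD45, passed narrowly (1.00, adjusted p = 0.043) and did not pass when any one of arrays 1, 2, 3, 5, 6, 9 and 10 was left out (0.88 to 1.09). Csf1r, the macrophage growth factor receptor, fell by 1.40, while 15 of 17 leukocyte markers did not pass.

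**Figure D4:**
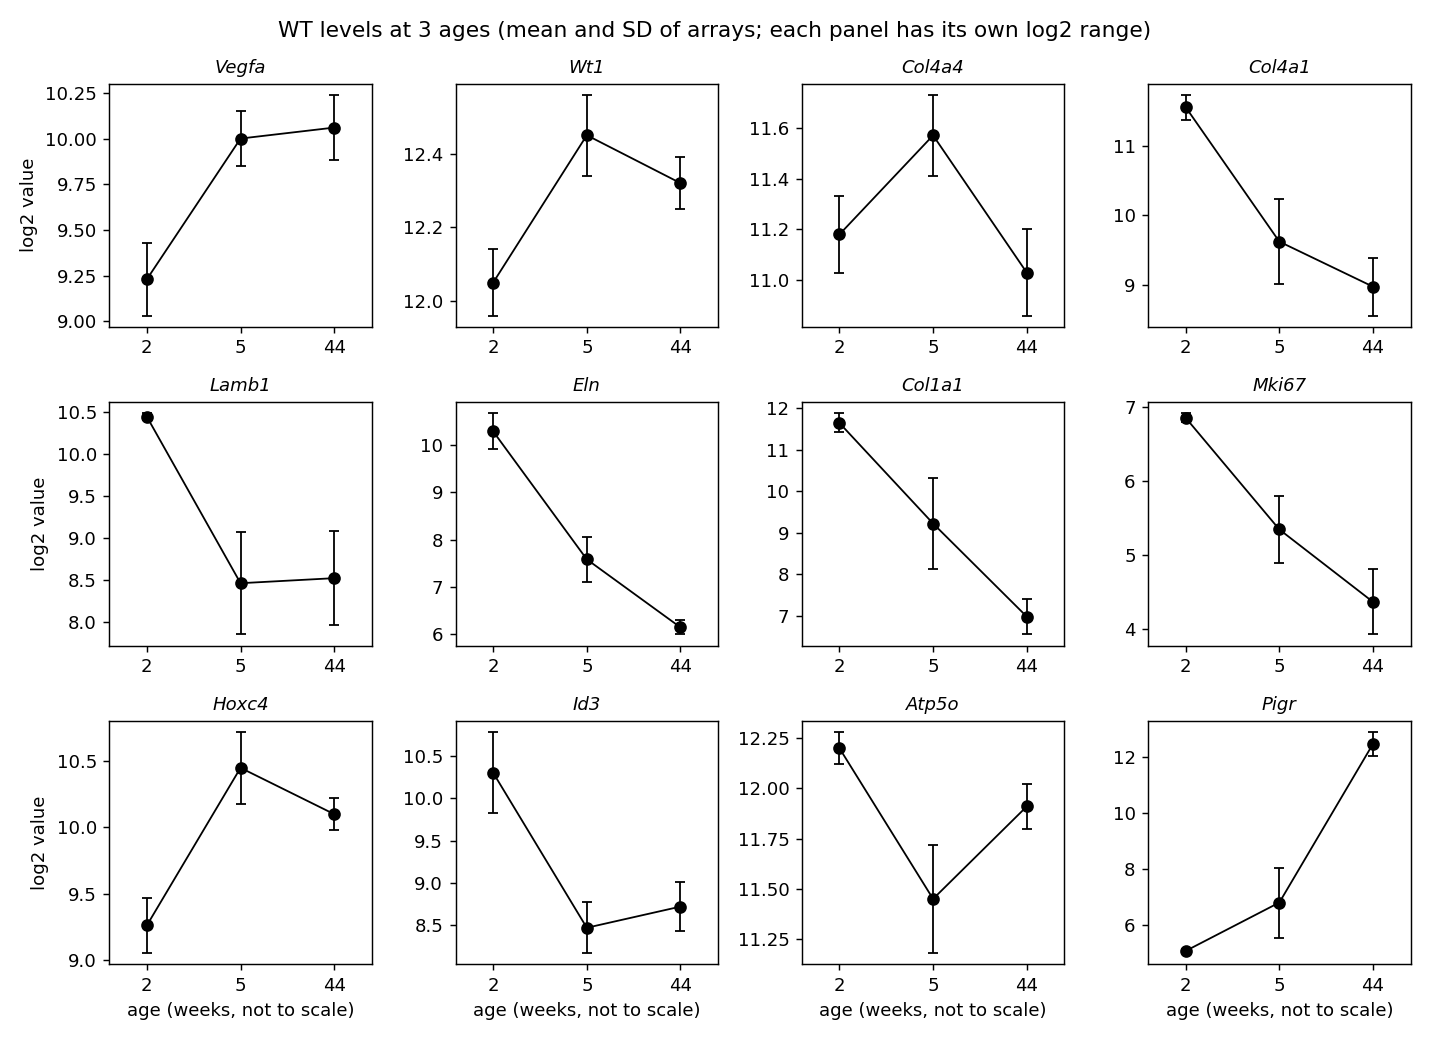
Mean log2 value and SD of 12 genes in WT podocytes (vertical axes, each panel with its own range) at 2, 5 and 44 weeks (horizontal, not to scale), with 4, 5 and 4 arrays. Mki67 and Col1a1 are lower still at 44 weeks, with means of 4.36 and 6.98, and Pigr reaches 12.47.

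Whether the KI podocytes changed alike between the same ages was tested as the difference of the WT change and the KI change. Y-linked genes were high on 3 of 4 KI arrays at 5 weeks and on 1 of 4 at 2 weeks. In WT the balance ran the other way, with 2 of 5 at 5 weeks and 4 of 4 at 2 weeks. The difference is therefore in part confounded with sex. KI arrays had 646 genes higher and 992 lower at 5 weeks, which is 5.4% and 8.29% of the genes. The WT and KI changes share no array. Across genes, which are not independent replicates, they correlated at 0.69, and of the 4053 genes called in WT 82.4% had the same sign in KI, against 66.1% of all genes. Genes called in both with the same sign numbered 1063, which is 26.2% of the WT calls and 64.9% of the KI calls, and 5 were called in opposite directions.

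Only 3 genes passed the test of the difference (0.0251% of the genes), and 2242 had an unadjusted p under 0.05. Mri1, an enzyme of methionine salvage, had 6.44, 6.36, 6.86, 6.63 and 7.36 in WT at 5 weeks, against 8.26, 7.68, 7.73 and 7.93 at 2 weeks, and changed by -1.17 in WT and 0.44 in KI. Tdp1, which repairs topoisomerase adducts on DNA, changed by -1.16 in WT and 0.18 in KI, and Trip10, a membrane-curving adaptor of Cdc42, by -0.77 in WT and 0.36 in KI. The differences were -1.62, -1.35 and -1.13. This count rests on array 10: without it 1521 genes differed, 304 with the WT change above the KI change and 1217 with it below. Without arrays 1 and 10 together 1161 differed. Leaving out any other single array of the 4 groups gave 0 to 2.

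Among the genes described above, Serpina6 changed by -7.65 in WT and -6.42 in KI, Agt by -3.93 and -4.0, and Akr1c14 by 3.36 and 3.84. Vegfa rose by 0.77 in WT and by 0.62 in KI. Col4a1 changed by -1.94 in WT and -1.04 in KI, and Col1a1 by -2.42 in WT and -0.87 in KI, the last not called in KI (adjusted p = 0.18). For neither of these 2 genes did the difference pass. Of the 34 podocyte identity genes 12 were higher and none lower in KI, and of the 18 interstitial fibroblast markers 5 were lower. Over all genes 5.4% were higher and 8.29% lower in KI. Pdgfb changed by -0.99 in WT and by 0.07 in KI, and Stat5a, a transducer of growth hormone and prolactin, by 0.17 and -0.77. Neither difference passed.

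**Figure D5:**
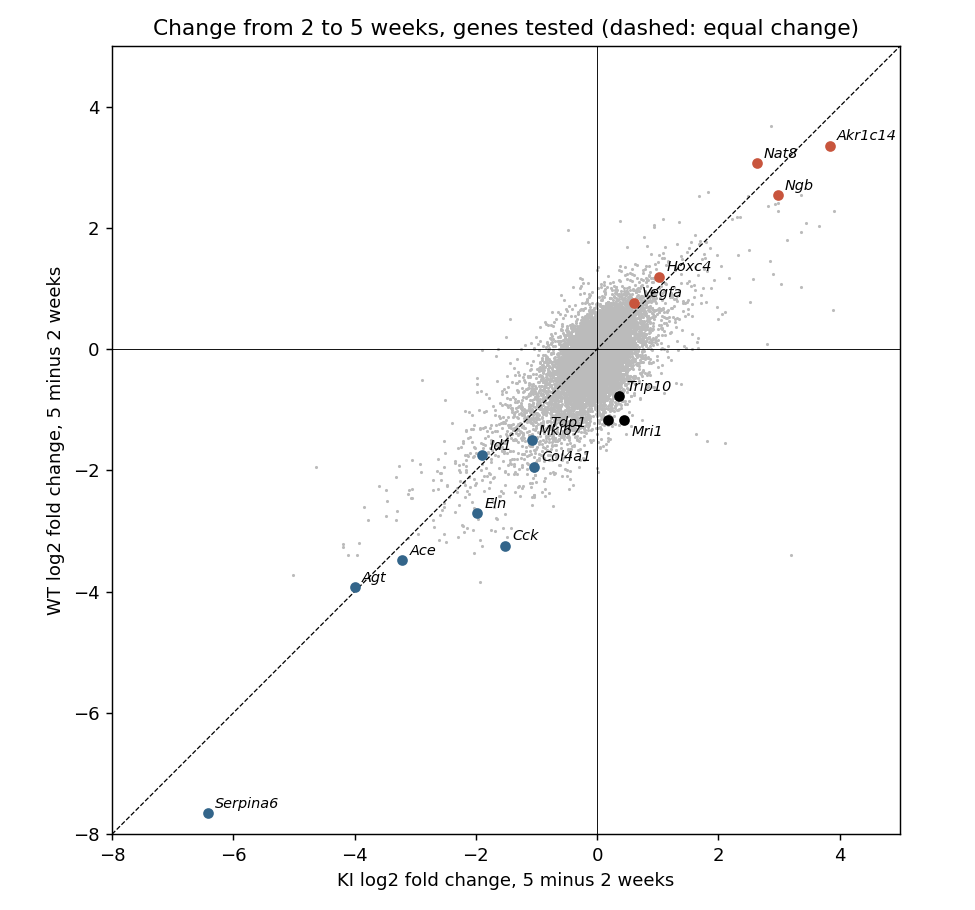
Log2 fold change between 5 and 2 weeks in WT (vertical) against that in KI (horizontal), 1 point for each of 11968 genes, with the line of equal change dashed. The 8 genes labelled as lower (blue) and 5 labelled as higher (red) in WT have the same sign in KI; Agt lies on the line with -3.93 and -4.0, Col4a1 lies below it with -1.94 and -1.04, and the 3 genes whose changes differed (black) lie below it.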

How the data were processed

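Polysomal RNA was amplified in 1 round with NuGEN WT-Ovation and labelled with the Encore biotin module, per the labels' protocols, and hybridized to an Affymetrix mouse array. The authors deposited log2 values for every probe set. The steps of summarization and normalization were not given in the sources used here. A log2 scale was inferred from a range of 1.86 to 13.62, and the spread of the medians over 25 arrays was 0.17.

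Of 45141 probe sets 28898 had 1 gene symbol in the platform annotation, 551 had several and 15588 others were not named there, beside 104 controls. A gene (17097 in all) was read from whichever of its probe sets averaged highest across the series, and the 30% dimmest genes (mean up to 4.603) were left out, which left 11968. The levels of 2 probe sets cannot be compared. Of 141 named genes 70 had more than 1 probe set, and 9 had probe sets that changed in both directions. All groups entered 1 limma 3.58.1 model (R 4.3.3) of 6 group means with 19 residual and 3.05 prior degrees of freedom, tested with eBayes and Benjamini-Hochberg adjustment over all genes. The method was tested on simulated data. Precision is limited by how many arrays there were.

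The members, gene lists and tests were chosen with earlier results of these data known. Genes named are a part of a rule: 15 rises and 15 falls, ranked by size among passing genes free of overlap (2 unnamed loci replaced), the lowest p-values of each list (at most 4 genes), a fixed set of podocyte, basement membrane and growth genes, and 6 each way for the difference from KI. Members of lists outside this rule (Ildr2, Plekhh2, Nes, Gpr153, Tcf21, Scrib, Prkcz, Timp3, Birc5, Bmp7, Cdkn1a, Hoxa9, Flna and Cpt1a) were chosen after their values were seen. Promoters came from RefSeq on GRCm38.p6.

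Alternatives were quantile normalization, centring, no filter or a 50% filter, the mean of probe sets, a trended robust prior, array weights, fewer arrays, covariates for tubule markers, sex and the actin and Gapdh 3′ minus 5′ signal, stricter call rules, and each array left out.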

Additional observations from a re-analysis of the deposited data

Results flagged for a closer look

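Dixon's test compares an array's gap to its nearest neighbour with the range of its group; of 310 groups of values tested 28 exceeded the 95% limit, and chance alone exceeds it in about 1 group in 20. Of the WT 5-week arrays, array 10 stood apart with 10.71 for Ngb (others 8.81 to 9.36), 12.07 for Foxc2 (12.32 to 12.36), 8.54 for Stat5b (7.95 to 8.10), 11.58 for Ndufs7 (10.61 to 10.89), 10.68 for Acaa1a (10.08 to 10.24), 6.10 for Masp1 (4.29 to 4.71) and 1.91 for the Gapdh 3′ minus 5′ signal (0.98 to 1.15). Array 6 stood apart with 9.81 for Hbb-b2, 8.58 for Hba-a1 and 9.00 for the mean of the erythroid markers (others 7.21 to 7.58), and array 7 with 4.86 for Cdh6 (4.02 to 4.18).

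At 2 weeks, array 1 lay far below the other arrays of its age for 14 genes. It had 10.26 for Serpina6 (others 12.67 to 12.80), 6.37 for Agt, 6.24 for Ace (9.59 to 10.26), 5.85 for Serpina10 and 4.68 for Xpnpep2 (8.02 to 8.45). It had 5.42 for Frem2, 10.37 for Cd24a (11.25 to 11.39), 4.56 for Irx2 (7.05 to 7.32), 5.20 for Chaf1b (6.21 to 6.25) and 4.79 for Pparg (6.34 to 6.47). For transport and drug genes it had 6.68 for Slc6a13 (9.86 to 10.13), 4.11 for Slco4c1 (7.45 to 8.10), 8.71 for Cyp2d26 (10.80 to 11.21) and 9.19 for Aqp1. Array 2 stood apart with 6.75 for Diaph2 (others 7.39 to 7.48) and 8.06 for Socs2 (7.24 to 7.34), and array 3 with 4.88 for Flt1 (5.81 to 5.84).

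The WT change lay below the KI change for Mri1 by 1.62 (difference -1.62), for Tdp1 (difference -1.35) and for Trip10 (difference -1.13), by the test of the difference itself.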

How the results depend on the processing

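The WT comparison called 4053 genes. Quantile normalization, centring, the filters, mean probe sets, the trended prior, only WT arrays and the tubule, sex and actin covariates gave counts within 1.5 times of it. Array weights gave 6092, only the arrays compared 2243, only arrays with high Y-linked signal 2442, the Gapdh covariate 2572, leaving out 5-week arrays 7, 8 and 9 991, a 2-fold minimum 1022 and an adjusted p under 0.01 2398. Leaving out 1 array gave 3178 to 4757. The KI comparison (1638) gave 3176, 77, 594 and 672 with array weights, high Y-linked signal, the 2-fold minimum and the stricter p, and 965 to 1463 with 1 array left out. The difference between WT and KI (3 genes) gave 1 with quantile normalization, 1 with centring and 1 with the trended prior. It gave 2441 with array weights (708 above, 1733 below) and 6 with the sex covariate. It gave 0 with only the arrays compared, with the Gapdh covariate, without arrays 7, 8 and 9, or at the stricter p. It gave 0 to 1521 with 1 array left out, the highest without 5-week array 10, and 1161 without arrays 1 and 10. Stricter call rules call fewer genes by construction; the cause of the other shifts was not tested.

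Of 141 named genes 94 kept their direction and side of the threshold in the alternatives fitted for them, and 7 values of 3 genes reversed. The stricter call rules were not applied to single genes, and the 50% filter kept 98 of the 141. Col4a5 was -0.06 without arrays 7, 8 and 9. Xaf1 was -0.43 with mean probe sets. Actn1 was -0.04 with mean probe sets, -0.06 with array weights, -0.04 with the actin covariate and -0.01 with the Gapdh covariate, and -0.03 to 0.2 with 1 array left out. The 5-week minus 2-week difference with 1 array left out ran from 0.3 to 0.38 for the actin signal, from -0.61 to -0.38 for the Gapdh signal and from -0.06 to -0.04 for the array median. No paired analysis was possible because each array has a number of its own. The number of arrays and signal near that of non-specific probe sets limit dim genes.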
